A study of Drosophila melanogaster with 32 samples.

Results

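The genes described here are those of the fourth chromosome of Drosophila melanogaster, the smallest chromosome of the fly. A gene was taken when all of its exons were listed on chromosome 4 in the count table, which gave 83 genes. Of these, the 9 genes bt, ey, toy, Sox102F, pan, ci, unc-13, sv and RpS3A were set aside by name. The 74 remaining genes stand against 14161 genes in the whole table. The rule used positions and names and no measured level, but it was set with earlier results of these data known. One further gene, JYalpha, was listed on chromosome 4 and on an unplaced scaffold and was not taken.

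The fourth chromosome is largely heterochromatic, and yet its genes are active. Heterochromatin protein HP1a and the chromosome-specific protein POF (gene Pof) coat its gene bodies, and the methyltransferase Eggless (gene egg) acts there on histone H3. Its genes include signalling ligands of the TGF-beta superfamily, axon guidance receptors, synaptic proteins and transcription factors used in the developing brain.

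RNA was sequenced from brains of larvae of instar 3, with 500 brains pooled in each preparation. From each homogenate 10% was kept as input, which samples RNA of the whole brain, and the remainder was precipitated with antibodies to GFP (IP), which recovers RNA bound to tagged ribosomes. All 4 groups carried the driver ipcGal4 and the construct UASRpl10Ab::GFP, a ribosomal protein fused to GFP. The ato groups also carried the allele ato1 of the proneural gene atonal, and the wild-type groups did not. The series intends the IPs to hold the ribosomes of T4 and T5 neurons, the motion-sensing cells of the optic lobe. The ato IP, wild-type IP, ato input and wild-type input groups had 2 libraries each. Nothing in the labels says that these came from separate collections of animals, so p-values measure the spread between these libraries, which may be technical.

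The libraries held 7780123 to 12238648 counts, so that 3 counts in a library correspond to 0.245 to 0.386 CPM, the unit of counts scaled to libraries of one size. The Pearson correlation of log2 CPM between replicates, over tested genes, was 0.958 in the ato IPs, 0.963 in the wild-type IPs, 0.970 in the ato inputs and 0.982 in the wild-type inputs. The gene ato had 13.3 and 11.1 CPM in ato IPs, 12.7 and 17.2 CPM in wild-type IPs, 15.6 and 15.05 CPM in ato inputs and 12.9 and 12.8 CPM in wild-type inputs. It was not called between genotypes (a call is an adjusted p below 0.05 in edgeR's quasi-likelihood test), with an adjusted p of 0.700 for the IPs and 0.671 for the inputs, and so its RNA does not serve as a check of the genotype labels. Summed over 7 genes used as markers of T4 and T5 neurons, the level was 481 to 605 CPM in ato IPs, 770 to 784 CPM in wild-type IPs, 365 to 423 CPM in ato inputs and 502 to 523 CPM in wild-type inputs. Of the 7, bi, dac and grn were called higher in the IP in both genotypes, and acj6, SoxN, AP-2 and ato in neither. Between genotypes dac and grn were called lower in ato, in the IPs and in the inputs, and the others were not called. Muscle markers (9 genes) also had more counts in the IPs, with 835 to 1625 CPM in ato IPs, 479 to 602 CPM in wild-type IPs, 287 to 531 CPM in ato inputs and 108 to 110 CPM in wild-type inputs. All 9 muscle genes were called higher in the IP in both genotypes, and 7 of the 9 were called higher in ato among both the IPs and the inputs.

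The fourth-chromosome genes were well expressed in these brains. Counts were made by the authors per gene over exons, and here a gene was tested when its counts passed edgeR's low-count filter, which kept 72 of the 74 genes (97.3%), against 72.2% of all genes. The tested fourth-chromosome genes had a median level of 36.2 RPKM (CPM per kilobase of exon), against 13.7 RPKM over all 10224 tested genes. Their exons were also longer, with a median of 3354 bases against 1980 bases. The 74 genes took 1.13% and 1.16% of the counts in ato IPs, 1.397% and 1.27% in wild-type IPs, 0.876% and 1.01% in ato inputs and 1.05% and 1.11% in wild-type inputs. In both genotypes the share was larger in every IP than in either input.

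On the RPKM scale, ATPsyn-beta had the highest mean of the 74 genes over the 8 libraries, at 667 RPKM. It encodes the catalytic beta subunit of mitochondrial ATP synthase. It was followed by Arf102F (Arf4), a small GTPase of the secretory pathway, at 248 RPKM and by Crk, an adaptor protein of receptor signalling, at 242 RPKM. Rad23, which carries ubiquitinated proteins to the proteasome and takes part in DNA repair, followed at 200 RPKM. The lowest 4 were CG33797 at 1.23 RPKM, sphinx at 0.865 RPKM, CG32006 at 0.788 RPKM and CG11231 at 0.386 RPKM. CG33797 and CG11231 were the genes that failed the filter. CG11231 had 8 and 1 counts in ato IPs, 4 and 0 counts in wild-type IPs and 0 counts in all 4 inputs. CG33797 had 3 and 2 counts in ato IPs, 9 and 4 in wild-type IPs, 1 and 0 in ato inputs and 0 and 3 in wild-type inputs.

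The comparison of IP with input asks which transcripts were richer in the tagged ribosomes than in the whole brain. In ato, 27 of the 72 tested fourth-chromosome genes were higher in the IP and 4 were lower, by edgeR's quasi-likelihood test with Benjamini-Hochberg adjusted p below 0.05 over all tested genes. Over all tested genes, 11.9% were called higher and 16.3% lower in that comparison. In wild type, 33 fourth-chromosome genes were higher in the IP and 5 were lower, against 17.3% and 18.4% of all tested genes. The fourth-chromosome genes called higher were therefore 37.5% of those tested in ato and 45.8% in wild type, and those called lower were 5.56% and 6.94%. Their median log2 ratio of IP to input was 0.50 in ato and 0.49 in wild type, while the median of all tested genes was 0.02 in ato and 0.06 in wild type. The log2 ratio was above 0 for 60 of the 72 genes in ato and for 58 in wild type.

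**Figure D1:**
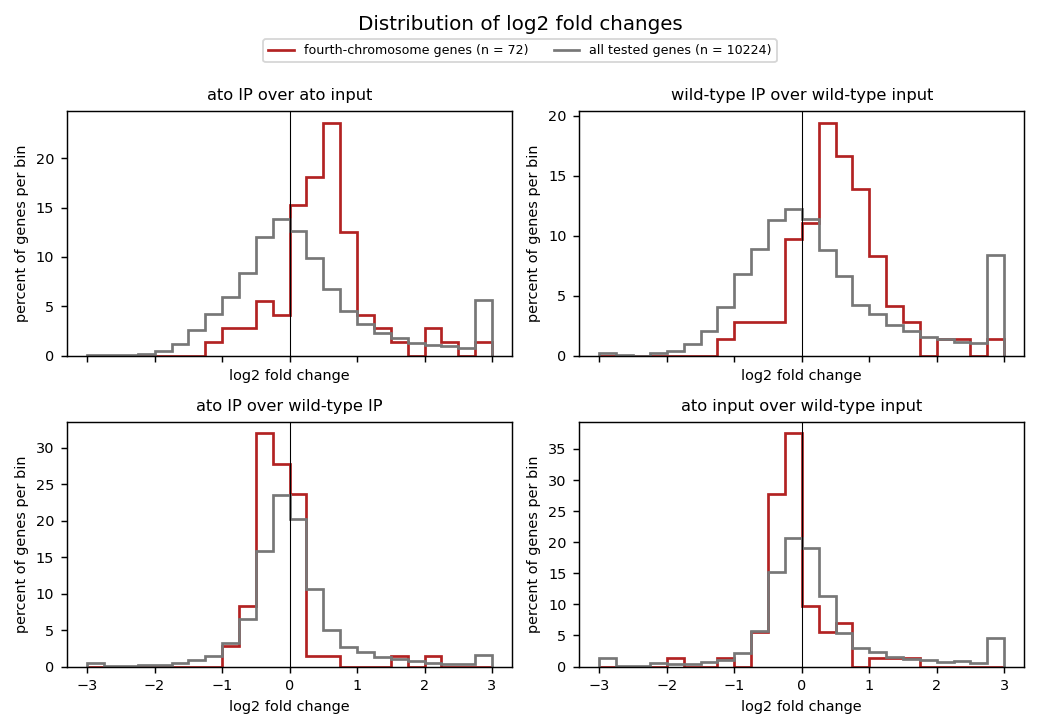
Percent of genes (y axis) per bin of log2 fold change (x axis) for the 72 tested fourth-chromosome genes (red) and all 10224 tested genes (grey) in 4 comparisons, with values beyond the axis placed in the end bins. The bulk of the red outline lies to the right of the grey one in both panels of IP over input, where its median is 0.50 in ato and 0.49 in wild type, while the last bin on the right holds 1.39% of fourth-chromosome genes in both genotypes against 5.68% of all genes in ato and 8.37% in wild type. The red outline lies slightly to the left of the grey one in both panels of ato over wild type.

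No other chromosome arm had such a share of genes called higher. In ato the share was 11.95% on 2L, 10.0% on 2R, 11.2% on 3L, 10.3% on 3R and 15.3% on X. In wild type it was 16.3% on 2L, 15.1% on 2R, 16.8% on 3L, 15.8% on 3R and 21.8% on X. The median log2 ratio of the other arms lay between -0.02 and 0.11 in ato and between -0.01 and 0.17 in wild type. The difference between arms was not tested.

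**Figure D2:**
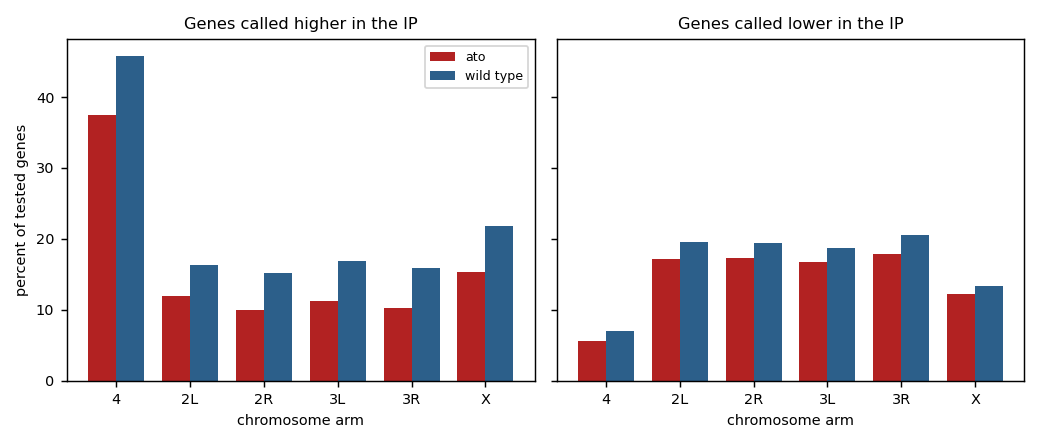
Percent of tested genes (y axis) on each chromosome arm (x axis) called higher (left panel) or lower (right panel) in the IP than in the input, with bars for ato in red and wild type in blue. The bars of chromosome 4 are the tallest for higher calls, at 37.5% in ato and 45.8% in wild type, and the shortest for lower calls, at 5.56% and 6.94%.

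Exon length differed between the fourth-chromosome genes and the rest, and it moved with the log2 ratio of IP to input. Among the 3409 tested genes with 2708 or more exonic bases, 22.9% were called higher in the IP in ato and 28.8% in wild type. The 46 fourth-chromosome genes of that length had 24 higher calls in ato and 27 in wild type, and no lower call in either, where 4.63% and 8.45% of all genes of that length were lower. With a correction for exon length fitted over all genes, the fourth-chromosome calls were 15 higher and 8 lower in ato, beside 8.90% higher and 17.6% lower among all genes, and 23 higher and 7 lower in wild type, beside 16.3% and 20.8%. Their median log2 ratio was then 0.14 in ato and 0.28 in wild type, beside -0.05 and 0.02 over all tested genes. Within the 72 genes, the Spearman correlation of the log2 ratio with exon length was 0.29 in ato and 0.28 in wild type, as a description of these genes only.

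Level was the other property in which they stood apart. Of the 72 genes, 52 lay in the most abundant of 3 equal groups of all tested genes, at 55.6 CPM or more. In that group 21 fourth-chromosome genes were higher and 3 lower in the ato IP, where 13.4% of all genes in the group were higher and 26.9% lower. In wild type 26 were higher and 4 lower, where 16.3% of all genes in the group were higher and 32.4% lower.

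**Figure D3:**
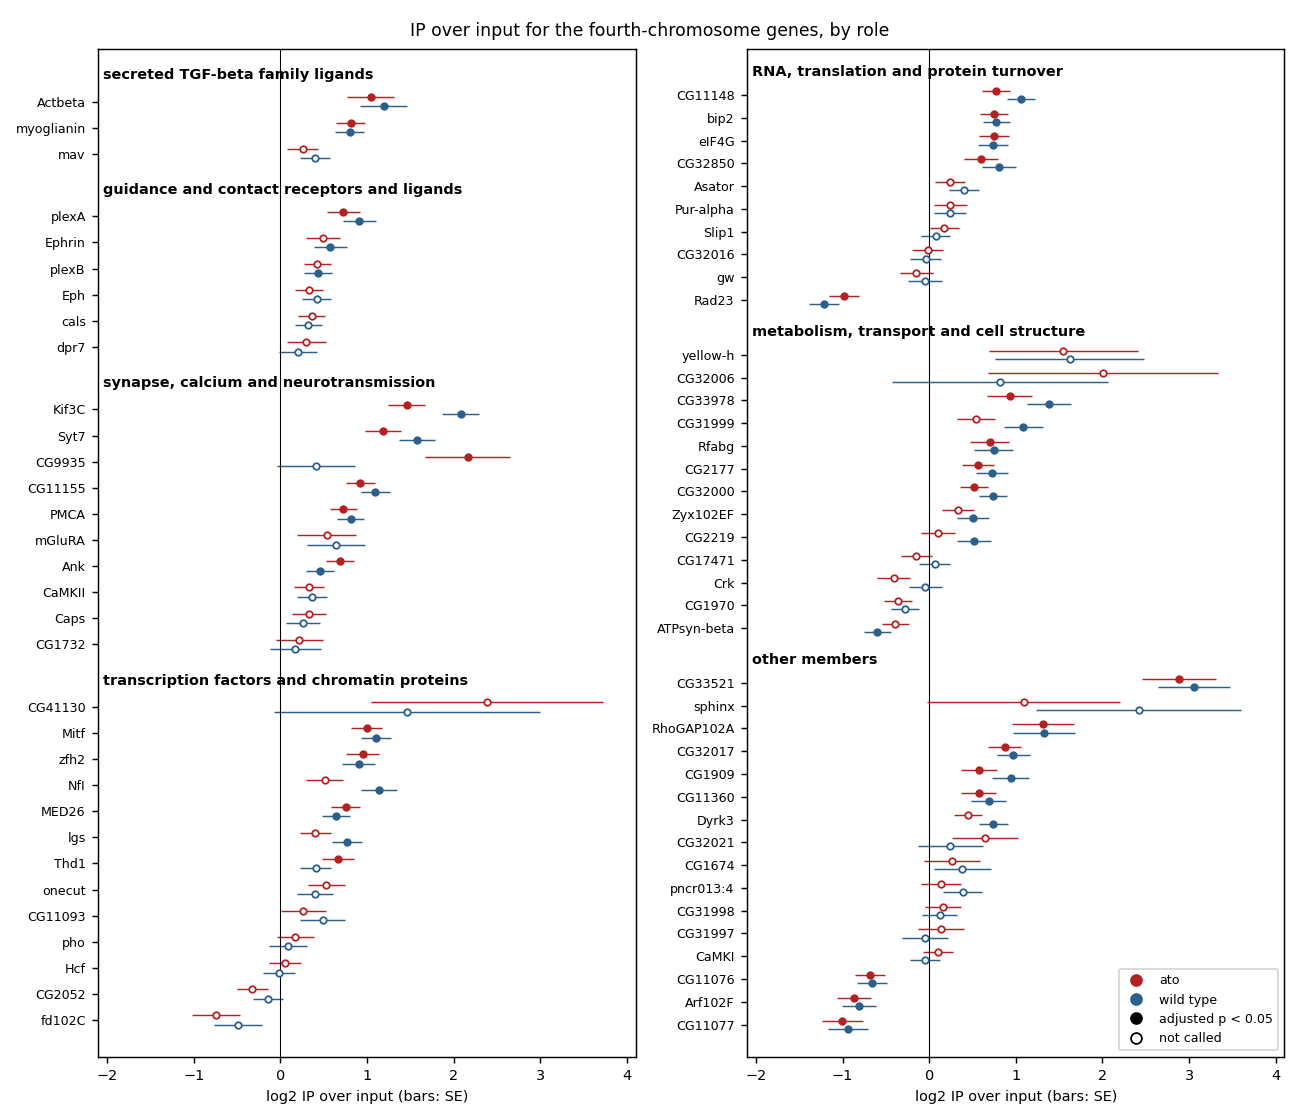
Log2 ratio of IP to input (x axis) with its standard error for 71 of the 72 tested fourth-chromosome genes, grouped by role, in ato (red) and wild type (blue), with filled points for adjusted p below 0.05. Most points lie to the right of 0 in every role group, CG33521, Kif3C and Syt7 stand far to the right in both genotypes, and Rad23, Arf102F, CG11076 and CG11077 lie to the left in both.

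All 3 ligands of the TGF-beta superfamily on the chromosome were tested, and 2 of them were higher in the IP in both genotypes. Actbeta (1097946 to 1105418 in dm3) encodes an activin-like ligand that acts through the receptor Baboon. It had 58.9 and 48.7 CPM in ato IPs, 55.8 and 85.4 CPM in wild-type IPs, 25.0 and 27.2 CPM in ato inputs and 39.4 and 22.1 CPM in wild-type inputs. Every IP was above every input, and the log2 ratio of IP to input was 1.04 ± 0.27 in ato (SE, adjusted p = 0.00960) and 1.19 ± 0.27 in wild type (adjusted p = 0.00288). The second, myoglianin (711890 to 716675), encodes a ligand of the same pathway that glia are known to supply to mushroom body neurons. It had 165 and 163 CPM in ato IPs, 206 and 192 CPM in wild-type IPs, 99.6 and 87.5 CPM in ato inputs and 107 and 122 CPM in wild-type inputs. Its IPs were again all above its inputs, with 0.81 ± 0.17 in ato (adjusted p = 0.00176) and 0.80 ± 0.16 in wild type (0.00144). The call of Actbeta in ato was lost without ato IP 1 (adjusted p = 0.0602) or ato input 1 (0.0521), and that in wild type without wild-type input 2 (0.0616).

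Among 6 guidance and contact proteins, 1 was higher in the IP in ato and 3 in wild type, with median log2 ratios of 0.39 and 0.43. The gene called in both was plexA, a receptor for membrane-bound semaphorins. It had 148 and 107 CPM in ato IPs, 185 and 153 CPM in wild-type IPs, 74.9 and 79.7 CPM in ato inputs and 85.3 and 95.1 CPM in wild-type inputs. The lowest IP was above the highest input, and the log2 ratio was 0.73 ± 0.19 in ato (adjusted p = 0.00924) and 0.91 ± 0.19 in wild type (0.00153). The related semaphorin receptor plexB had 0.43 ± 0.16 in both genotypes, with an adjusted p of 0.0541 in ato and 0.0410 in wild type. Ephrin, the membrane ligand of Eph, had 0.49 ± 0.19 in ato (0.0643) and 0.58 ± 0.19 in wild type (0.0255). The receptor Eph itself had 0.33 ± 0.17 in ato (0.152) and 0.42 ± 0.16 in wild type (0.0567), and cals, a calsyntenin, and dpr7, a cell-surface protein of the immunoglobulin superfamily, were not called. The ato call of plexA was lost without ato IP 1 (0.159) or ato input 1 (0.0576), and with the length correction plexA had 0.03 in ato (0.919) and 0.28 in wild type (0.139) and was called in neither. The wild-type call of plexB was lost in 10 of the 15 alternatives, and that of Ephrin without wild-type IP 1 (0.135), wild-type input 1 (0.255) or wild-type input 2 (0.0723).

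The synaptic genes held some of the largest ratios. Of 10 genes for synaptic, calcium and neurotransmitter proteins, 6 were higher in the IP in ato and 5 in wild type, none was lower, and the median log2 ratio was 0.71 in ato and 0.55 in wild type. Kif3C, which encodes a kinesin motor (1168092 to 1189865), had 63.2 and 62.8 CPM in ato IPs, 75.7 and 91.9 CPM in wild-type IPs, 20.1 and 25.5 CPM in ato inputs and 19.9 and 19.7 CPM in wild-type inputs. The IPs were well clear of the inputs in both genotypes, by 2.75-fold in ato (1.46 ± 0.21, adjusted p = 0.000135) and 4.22-fold in wild type (2.08 ± 0.22, 4.75e-06). Syt7, a synaptotagmin that senses calcium (299303 to 327107), had 109 and 117 CPM in ato IPs, 97.8 and 144 CPM in wild-type IPs, 49.7 and 49.99 CPM in ato inputs and 35.7 and 45.5 CPM in wild-type inputs. Its ratio was 2.27-fold in ato (1.18 ± 0.21, adjusted p = 0.000576) and 2.98-fold in wild type (1.58 ± 0.21, 4.41e-05), and no IP overlapped an input. CG11155, a subunit of kainate-type glutamate receptors, had 197 and 223 CPM in ato IPs, 248 and 292 CPM in wild-type IPs, 110 and 111 CPM in ato inputs and 118 and 134 CPM in wild-type inputs. Every IP again exceeded every input, with 0.92 ± 0.17 in ato (adjusted p = 0.000705) and 1.10 ± 0.17 in wild type (0.000132).

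The plasma membrane calcium pump PMCA and the membrane-skeleton adaptor Ank were also called higher in both genotypes. PMCA had 376 and 356 CPM in ato IPs, 356 and 364 CPM in wild-type IPs, 212 and 231 CPM in ato inputs and 220 and 191 CPM in wild-type inputs, a log2 ratio of 0.72 ± 0.16 in ato (adjusted p = 0.00266) and 0.81 ± 0.16 in wild type (0.000898). With the length correction PMCA was no longer called in ato (0.860) or in wild type (0.306), and neither was Ank (0.265 in ato, 0.779 in wild type). Ank was also lost without ato input 1 in ato (0.0536) and in 8 of the 15 alternatives in wild type. The kinase CaMKII, the vesicle-priming factor Caps, the metabotropic glutamate receptor mGluRA and the GABA transporter CG1732 were called in neither genotype. CaMKII had 0.33 ± 0.17 in ato (0.161) and 0.36 ± 0.17 in wild type (0.103), and its lowest IP in ato, at 291 CPM, stood only just above its highest ato input, at 275 CPM. The sum of 7 general markers of neurons was higher in the IPs, with 985 to 989 CPM in ato IPs, 1062 to 1103 CPM in wild-type IPs, 625 to 693 CPM in ato inputs and 629 to 690 CPM in wild-type inputs. Of the 7, Syt1, Rim, para and Sh were called higher in the IP in both genotypes and brp in wild type only. The markers elav and n-syb were called in neither. The part of these markers, and of the muscle markers, in the ratios of the fourth-chromosome genes was not tested.

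Transcription factors and chromatin proteins gave 4 higher calls among 13 tested genes in ato and 5 in wild type, and no lower call. Mitf, a basic helix-loop-helix zipper factor that regulates lysosomal genes (1219484 to 1228193), had 137 and 126 CPM in ato IPs, 178 and 201 CPM in wild-type IPs, 65.4 and 66.1 CPM in ato inputs and 96.3 and 79.3 CPM in wild-type inputs. Both genotypes showed IPs above inputs, with 0.99 ± 0.17 in ato (adjusted p = 0.000539) and 1.11 ± 0.17 in wild type (0.000158). The zinc-finger homeodomain factor zfh2 had 325 and 224 CPM in ato IPs, 369 and 280 CPM in wild-type IPs, 139 and 146 CPM in ato inputs and 173 and 174 CPM in wild-type inputs. It was called higher in ato (0.95 ± 0.19, adjusted p = 0.00165) and in wild type (0.91 ± 0.19, 0.00176). With 10571 exonic bases it was among the longest, and its log2 ratio with the length correction was -0.07 in ato and -0.09 in wild type. NfI, the only fly member of the nuclear factor I family, was called in wild type (1.14 ± 0.21, adjusted p = 0.000560) but not in ato (0.51 ± 0.21, 0.0802). It had 43.9 and 55.3 CPM in ato IPs, 71.4 and 89.5 CPM in wild-type IPs, 34.9 and 34.7 CPM in ato inputs and 34.6 and 38.3 CPM in wild-type inputs. The difference between these ratios, ato minus wild type, was -0.63 ± 0.29 and was not called (adjusted p = 0.991).

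MED26, a subunit of the Mediator complex, was called higher in ato (0.75 ± 0.16, adjusted p = 0.00269) and in wild type (0.64 ± 0.16, 0.00600). Thd1, a thymine DNA glycosylase, was called in ato (0.67 ± 0.18, adjusted p = 0.0118) and not in wild type (0.41 ± 0.18, 0.0890). With the length correction MED26 was not called in ato (0.106) or in wild type (0.124), nor Thd1 in ato (0.680), where its log2 ratio was 0.08. The wild-type call of MED26 was also lost without wild-type input 1 (0.0999), and the call of Thd1 without ato IP 1 (0.154) or ato input 1 (0.0921). The Wnt pathway cofactor lgs was called in wild type (0.77 ± 0.18, adjusted p = 0.00312) and not in ato (0.40 ± 0.18, 0.102). The Polycomb-group DNA-binding protein pho had 0.17 ± 0.22 in ato and 0.09 ± 0.22 in wild type, and the chromatin cofactor Hcf had 0.05 ± 0.18 and -0.02 ± 0.18. The forkhead gene fd102C had the lowest values of the group, at -0.74 ± 0.28 in ato (0.0538) and -0.48 ± 0.28 in wild type (0.185).

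Genes for RNA handling, translation and protein turnover split in direction. Of 10 tested, 4 were higher and 1 was lower in each genotype. CG11148 (Gyf), a GYF-domain protein of translational repression, had 361 and 402 CPM in ato IPs, 524 and 453 CPM in wild-type IPs, 209 and 238 CPM in ato inputs and 242 and 226 CPM in wild-type inputs. Its log2 ratio was 0.77 ± 0.16 in ato (adjusted p = 0.00202) and 1.06 ± 0.16 in wild type (0.000133). The translation initiation scaffold eIF4G was higher by 0.75 ± 0.17 in ato (adjusted p = 0.00384) and 0.73 ± 0.17 in wild type (0.00342). The other higher calls were bip2 (Taf3, a subunit of the general transcription factor TFIID that this list also holds) and CG32850 (Rnf11, a RING-finger protein). With the length correction the ato calls of CG11148 (0.0594) and bip2 (0.0550) were lost, and eIF4G was not called, at 0.11 in ato (0.551) and 0.17 in wild type (0.314). Without ato IP 1 the ato call of eIF4G was lost (0.0756), and that of CG32850 was lost in 5 of the 15 alternatives. The GW182 protein gw, an effector of microRNA silencing, had -0.15 ± 0.20 in ato and -0.05 ± 0.19 in wild type, and CG32016 (4E-T), an eIF4E-binding protein, had -0.02 ± 0.18 and -0.04 ± 0.18.

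Rad23 was the gene lower in the IP in this group and had the largest fall in wild type among the 72 genes. It lies at 328723 to 330934 and had 177 and 222 CPM in ato IPs, 165 and 205.25 CPM in wild-type IPs, 391.6 and 399 CPM in ato inputs and 423 and 436 CPM in wild-type inputs. All 4 IPs lay far below all 4 inputs, by 1.98-fold in ato (-0.98 ± 0.17, adjusted p = 0.000514) and 2.32-fold in wild type (-1.22 ± 0.17, 6.87e-05).

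The other genes lower in the IP in both genotypes were short. Arf102F, with 779 exonic bases, had 116 and 155 CPM in ato IPs, 120 and 163 CPM in wild-type IPs, 274 and 220 CPM in ato inputs and 253 and 243 CPM in wild-type inputs. It fell by 0.86 ± 0.20 on the log2 scale in ato (adjusted p = 0.00349) and by 0.81 ± 0.19 in wild type (0.00423), and its call in ato was lost without ato IP 1 (0.0589). CG11077 (Mpv17, an inner mitochondrial membrane protein), with 685 exonic bases, had -1.001 ± 0.24 in ato (adjusted p = 0.00457) and -0.94 ± 0.23 in wild type (0.00567). Its neighbour CG11076, with 1327 exonic bases, had -0.69 ± 0.17 in ato (0.00686) and -0.66 ± 0.17 in wild type (0.00726). Both CG11076 and CG11077 missed the threshold without ato IP 1 or ato input 1 in ato (0.0506 to 0.0758) and without wild-type IP 1 or wild-type input 2 in wild type (0.0510 to 0.0602). ATPsyn-beta had 1020 and 1088 CPM in ato IPs, 862 and 983 CPM in wild-type IPs, 1315 and 1452 CPM in ato inputs and 1386 and 1406 CPM in wild-type inputs. It was called lower in wild type (-0.60 ± 0.16, adjusted p = 0.00699), a call lost without either wild-type input (0.0535 and 0.0565), and had -0.39 ± 0.15 in ato (0.0685).

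Metabolic, transport and structural genes gave 5 higher calls among 14 in ato and 8 in wild type. Among those called in both were CG32000 (anne, a P-type ATPase), CG2177 (Zip102B, a zinc transporter), CG33978 and Rfabg (apolpp), the lipid carrier apolipophorin made by the fat body. With the length correction CG32000 was called in neither genotype (adjusted p = 0.660 in ato, 0.347 in wild type), nor CG2177 in ato (0.0541). The ato calls of CG32000 and CG2177 were each lost in 6 of the 15 alternatives, and their wild-type calls in 2 and 3. CG33978 was the longest of the 74 genes, at 12171 exonic bases. It had 94.7 and 53.5 CPM in ato IPs, 134 and 131 CPM in wild-type IPs, 48.3 and 29.7 CPM in ato inputs and 52.3 and 49.5 CPM in wild-type inputs. Its log2 ratio was 0.93 ± 0.26 in ato (adjusted p = 0.0128) and 1.38 ± 0.26 in wild type (0.000594), and the length correction left -0.23 in ato and 0.28 in wild type. The ato call of CG33978 was lost without ato IP 1 (0.279) or ato input 2 (0.138). Rfabg had 141 and 111 CPM in ato IPs, 88.3 and 70.3 CPM in wild-type IPs, 86.3 and 68.7 CPM in ato inputs and 57.5 and 37.1 CPM in wild-type inputs. It was called at 0.70 ± 0.22 in ato (adjusted p = 0.0281) and 0.74 ± 0.23 in wild type (0.0177), and had -0.29 in ato and -0.23 in wild type with the length correction. The calls of Rfabg were also lost without ato IP 1 (0.222) or ato input 2 (0.176) in ato and without wild-type IP 1 (0.106) or wild-type input 2 (0.251) in wild type. The summed level of 6 fat body markers was 131 to 258 CPM in ato IPs, 39.6 to 139 CPM in wild-type IPs, 101 to 183 CPM in ato inputs and 18.3 to 88.2 CPM in wild-type inputs, and their part in the Rfabg value was not tested. CG31999 was called in wild type (1.09 ± 0.22, adjusted p = 0.00145) and not in ato (0.54 ± 0.22, 0.0803), and the small GTPase gene CG2219 (Arl4) and the zyxin gene Zyx102EF were also called in wild type only. The wild-type calls of CG2219 and Zyx102EF, at 0.0489 and 0.0439, were lost in 7 and 4 of the 15 alternatives. CG1970 (ND-49, a subunit of respiratory complex I) had -0.36 ± 0.17 in ato (0.117) and -0.28 ± 0.16 in wild type (0.203).

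The largest ratio among the 72 tested genes belonged to CG33521, a gene outside the role groups (1206399 to 1213327). It had 29.1 and 18.01 CPM in ato IPs, 19.0 and 34.6 CPM in wild-type IPs, 2.14 and 4.14 CPM in ato inputs and 2.62 and 3.81 CPM in wild-type inputs. All IPs were several times above all inputs, by 7.37-fold in ato (2.88 ± 0.42, adjusted p = 0.000140) and 8.33-fold in wild type (3.06 ± 0.42, 5.15e-05). On the opposite strand, CG17471 (PIP4K, a phosphatidylinositol phosphate kinase) shares 236 exonic bases with it, 8.45% of CG33521, and had -0.15 ± 0.18 in ato (0.577) and 0.06 ± 0.18 in wild type (0.813). RhoGAP102A had 15.1 and 12.3 CPM in ato IPs, 13.7 and 16.8 CPM in wild-type IPs, 4.91 and 6.06 CPM in ato inputs and 5.81 and 6.35 CPM in wild-type inputs. Its log2 ratio was 1.31 ± 0.36 in ato (adjusted p = 0.0123) and 1.32 ± 0.36 in wild type (0.00869). The 16 tested genes outside the role groups gave 5 higher and 3 lower calls in ato and 6 higher and 3 lower in wild type. Among them CG32017 had 0.87 ± 0.19 in ato (adjusted p = 0.00273) and 0.97 ± 0.19 in wild type (0.000956), and the kinase gene Dyrk3 had 0.45 ± 0.17 in ato (0.0524) and 0.74 ± 0.17 in wild type (0.00260). Dyrk3 was not called in wild type without wild-type input 1 (0.0701), and the call of RhoGAP102A was lost without ato IP 1 (0.0785) or ato input 1 (0.0673) in ato and without wild-type IP 2 (0.0531) or wild-type input 1 (0.0728) in wild type.

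**Figure D4:**
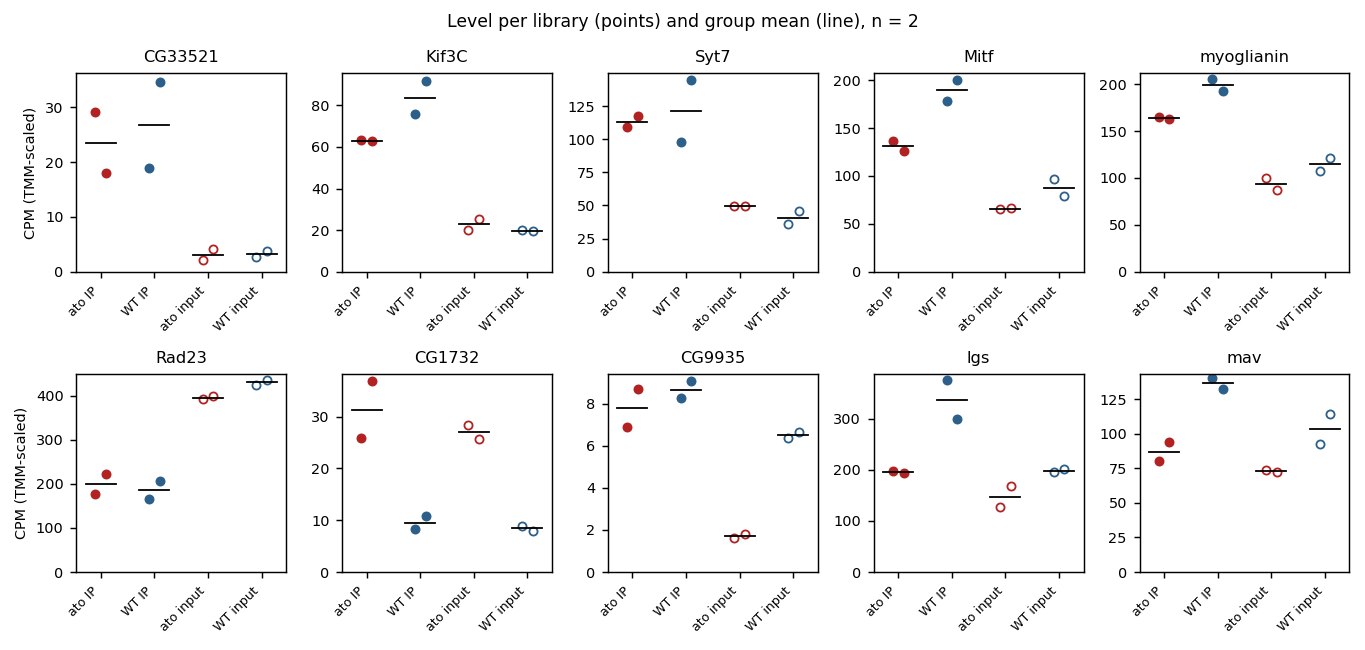
CPM scaled by TMM (y axis, starting at 0) in each library (points) and group means (lines, n = 2) for 10 fourth-chromosome genes, with the groups in the order ato IP, wild-type IP (WT), ato input and wild-type input. CG33521, Kif3C, Syt7, Mitf and myoglianin are higher in every IP than in every input, Rad23 is lower in every IP, CG1732 is higher in every ato library, and CG9935 is low in the ato inputs, at 1.64 and 1.82 CPM.

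Of the 27 genes called higher in ato and the 33 called higher in wild type, 25 were called in both. These comparisons share no library, but 1 model over all 8 libraries gave both, so they share the filter and the estimate of spread. The share of all tested genes called higher in both genotypes was not counted. The 4 called lower in ato were all among the 5 called lower in wild type, and 32 of the 72 genes were called in neither genotype. Syt7, myoglianin, CG11155, CG32017, Kif3C, CG33521 and Mitf among the higher genes, and Rad23 among the lower, kept their calls in both genotypes under all 15 alternative ways of processing the counts. The counts leaned on single libraries: in ato the higher calls were 16 without ato input 1, which is 22.2% of the 72 genes beside 6.16% of all tested genes. In wild type they were 21 without wild-type input 1, 29.2% beside 8.16%. Lower calls also changed in number when single libraries were left out, and so did the share of all tested genes called lower.

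Higher calls occurred along the whole chromosome. Among the 36 tested genes nearer the start of the sequence, 13 were higher in the ato IP and 18 in the wild-type IP, and 1 was lower in each. Among the 36 further along it, 14 were higher and 3 lower in ato, and 15 were higher and 4 lower in wild type. The Spearman correlation of the log2 ratio with the start position, over 72 genes, was 0.06 in ato and 0.02 in wild type. Runs of tested genes called higher, counted in order without the genes set aside by name, had at most 3 members. Examples were CG2177, CG32850 and PMCA in ato and plexB, Ank and CG32000 in wild type. Genes next to each other in such a run need not be neighbours on the chromosome. The chromosome's tested genes were divided into 30 on the plus strand, of which 11 were higher in ato and 12 in wild type, and 42 on the minus strand, of which 16 were higher in ato and 21 in wild type.

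**Figure D5:**
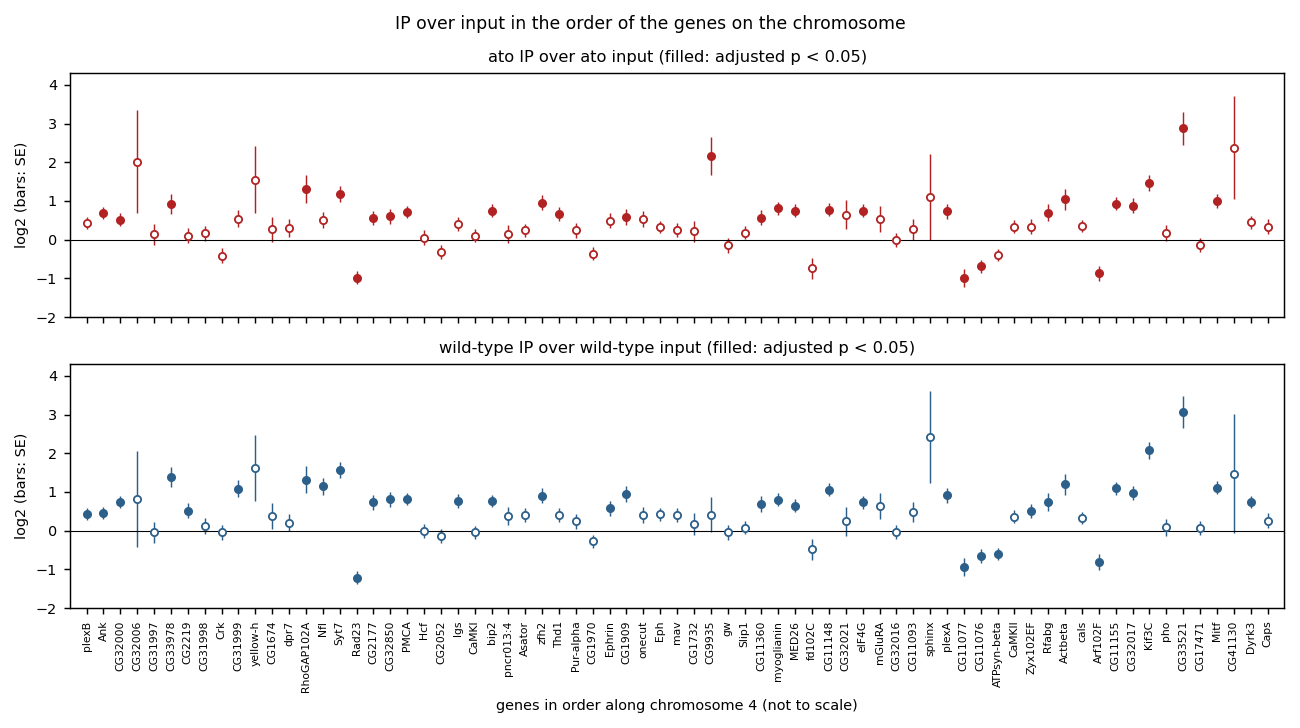
Log2 ratio of IP to input with its standard error (y axis) for 71 of the 72 tested genes in their order along the chromosome (x axis, not to scale), in ato (upper panel) and wild type (lower panel), with filled points for adjusted p below 0.05. Filled points above 0 occur along the whole length with runs of at most 3, and CG11077 and CG11076, both below 0 in each genotype, are neighbours.

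Genes for chromatin regulators, among them Pof, egg and the gene of HP1a, were measured as a separate list, and they lie on other chromosomes. The list was not limited to proteins known to act on the fourth chromosome. Of 13 tested, 2 were higher and 6 lower in the IP in ato, beside 11.9% and 16.3% of all tested genes. In wild type 2 were higher and 8 lower, beside 17.3% and 18.4%. The median log2 ratios of the list were -0.46 in ato and -0.65 in wild type. Pof had 34.7 and 31.0 CPM in ato IPs, 32.7 and 32.4 CPM in wild-type IPs, 36.9 and 28.8 CPM in ato inputs and 33.4 and 33.0 CPM in wild-type inputs. Its log2 ratio was 0.00 ± 0.22 in ato (adjusted p = 0.989) and -0.03 ± 0.22 in wild type (0.936). The gene of HP1a was lower in the IP, by 1.89-fold in ato (-0.92 ± 0.16, 0.000577) and 1.70-fold in wild type (-0.77 ± 0.16, 0.00172). None of the 13 was called between genotypes in the IPs or in the inputs.

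The comparison of ato with wild type asks which transcripts differ when atonal is lost. Few fourth-chromosome genes were called. In the IPs 1 gene was higher in ato and 2 were lower, which was near the 2.82% and 1.88% called among all tested genes. In the inputs 1 gene was higher in ato and 1 was lower, where 4.64% and 2.34% of all tested genes were called. The median log2 fold change of ato over wild type was -0.23 in the IPs and -0.16 in the inputs, against medians of -0.03 and 0.01 over all tested genes. The log2 fold change was below 0 for 51 of 72 genes in the IPs and for 53 in the inputs. These comparisons share their libraries with those of IP and input.

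CG1732 (Gat), a GABA transporter known from glia, was higher in ato in both kinds of library. It lies at 650319 to 655978 and had 25.9 and 36.9 CPM in ato IPs, 8.28 and 10.8 CPM in wild-type IPs, 28.3 and 25.6 CPM in ato inputs and 8.91 and 7.92 CPM in wild-type inputs. The ato libraries lay above all wild-type libraries, by 3.30-fold in the IPs (1.72 ± 0.29, adjusted p = 0.00161) and 3.20-fold in the inputs (1.68 ± 0.29, 0.00129). With 1 run per library the call in the inputs missed the threshold (0.0515). More glial cells and more of this RNA in each glial cell cannot be told apart in bulk samples, nor can fewer cells and less RNA per cell for genes that were lower. The summed level of 9 glial markers was 1414 to 1615 CPM in ato IPs, 895 to 911 CPM in wild-type IPs, 1414 to 1631 CPM in ato inputs and 822 to 914 CPM in wild-type inputs. Of these 9 markers, 4 were higher in ato in the IPs and none lower, and 4 were higher and 1 lower in the inputs. The 4 higher ones were Gs2, nrv2, Eaat1 and CG11910 in both, and Gs2 and nrv2 held much of the sum. In the IPs Gli (-0.88 ± 0.28), loco (-0.67 ± 0.21) and repo (-0.28 ± 0.20) lay below 0 on the log2 scale. The remaining markers moody and wrapper lay above 0, and none of these 5 was called. The part of the 9 markers in the value of CG1732 was not tested.

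In the ato IPs lgs and mav were lower than in the wild-type IPs. The gene lgs, whose product links Pygopus to Armadillo in Wnt signalling, had 197 and 193 CPM in ato IPs, 376 and 298 CPM in wild-type IPs, 128 and 167 CPM in ato inputs and 195 and 201 CPM in wild-type inputs. The log2 fold change of ato over wild type was -0.79 ± 0.18 between IPs (adjusted p = 0.0135) and -0.42 ± 0.18 between inputs (0.177). Without ato IP 1 (0.0763), ato IP 2 (0.135) or wild-type IP 1 (0.0893) lgs was not called. The TGF-beta superfamily ligand mav (maverick) had 80.0 and 94.0 CPM in ato IPs, 140 and 133 CPM in wild-type IPs, 73.5 and 72.001 CPM in ato inputs and 92.6 and 114 CPM in wild-type inputs. Its values were -0.65 ± 0.18 between IPs (adjusted p = 0.0474) and -0.51 ± 0.18 between inputs (0.105). The call of mav was lost in 8 of the 15 alternatives, among them DESeq2 size factors (0.0633) and the removal of any single IP (0.0673 to 0.296).

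CG9935 (Ekar), another kainate-type glutamate receptor subunit and the neighbour of CG1732, was lower in ato inputs. It had 56 and 70 counts in ato IPs, 78 and 67 counts in wild-type IPs, 13 and 18 counts in ato inputs and 78 and 68 counts in wild-type inputs. The ato inputs, at 1.64 and 1.82 CPM, were the only libraries below 6 CPM, as the wild-type inputs had 6.38 and 6.65 CPM. The log2 fold change of ato over wild type was -1.90 ± 0.49 in the inputs (adjusted p = 0.0245) and -0.15 ± 0.45 in the IPs (0.916). The log2 ratio of IP to input was 2.16 ± 0.49 in ato (0.00381) and 0.41 ± 0.45 in wild type (0.501). With 1 run per library the ratio in ato was 0.99 and not called (0.406). The call in the inputs was lost with limma-voom (0.0647), with 1 run per library (0.718) and without any single input (0.0715 to 0.116).

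Several genes came close without passing. In the IPs these included NfI (-0.70 ± 0.21, adjusted p = 0.0662), CG33978 (-0.84 ± 0.25, 0.0679), CG11360 (-0.65 ± 0.20, 0.0783) and Mitf (-0.53 ± 0.17, 0.0924), and in the inputs Slip1 (-0.55 ± 0.17, 0.0583) and Rfabg (0.71 ± 0.23, 0.0713). At an unadjusted p below 0.05, edgeR found 20 of the 72 genes in the IPs and 13 in the inputs. The share of all tested genes at that threshold was not counted, so these numbers do not set the chromosome apart. The number of lower calls changed as single libraries were left out. In the IPs the median log2 fold change then ranged from -0.25 (without wild-type IP 1) to -0.19 (without wild-type IP 2). The medians of all tested genes were -0.05 and 0.03 in those settings. In the inputs the median ranged from -0.23 (without ato input 2) to -0.12 (without wild-type input 2), beside 0.00 and 0.03 for all tested genes.

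Whether the ratio of IP to input differed between genotypes was tested by an interaction term, ato minus wild type. No fourth-chromosome gene was called by edgeR, and neither was any other tested gene (0% in each direction). DESeq2's Wald test and limma-voom also called 0 of the 72 genes. At an unadjusted p below 0.05, edgeR gave 2 fourth-chromosome genes, limma-voom 2 and DESeq2 1. They were CG9935, with a difference of 1.75 ± 0.66 in log2 ratio (adjusted p = 0.991 by edgeR), and, except with DESeq2, NfI, with -0.63 ± 0.29 (adjusted p = 0.991). The genes called in 1 genotype only, 8 in wild type and 2 in ato for higher calls, are therefore not shown to differ between genotypes.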

How the data were processed

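Ribosome-bound (IP) and input RNA of ato and wild-type larval brains were sequenced in 32 runs, 4 per library. The authors deposited raw counts per gene and run, for which the submitters' processing notes name TopHat2 2.0.12 and featureCounts 1.4.4. The count is over exons of dm3 with mapping quality of at least 5, per the file headers. No setting for strand, pairs, multimapping or gene overlap is recorded there, so overlapping and antisense genes cannot be told apart. Of the 74 genes, 68 share no exonic base with another gene. Coordinates are those of the table.

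Runs were summed to 8 libraries. edgeR 4.0.16 (R 4.3.3) fitted 1 model over the 4 groups after filterByExpr and TMM scaling and gave quasi-likelihood F tests. P-values were adjusted over 10224 genes (threshold 0.05). Variation between replicates had a common coefficient of 0.203. Alternatives used DESeq2 1.42.0 and limma 3.58.1, no low-count filter, 1 run per library, a length correction, a replicate block and the removal of each library in turn. CPM and RPKM values were computed here from the deposited counts with TMM factors. A level of 3 counts is given as a floor for counting error only.

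Names were matched to RefSeq by symbol (41 of 74), synonym or alias (16) or locus tag (14), and 3 did not match. Genes and lists were chosen with earlier results of these data known. Named were the 8 genes with the largest change in each direction among those called at 10 CPM or more in the higher group, and genes of the role lists where results turn on them. Promoter sequences were not analysed here. The values of 1 tested gene are not reported here, and it is left out of the plots that name genes, but it stays in the counts.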

Additional observations from a re-analysis of the deposited data

How the results depend on the processing

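With exon length corrected, the direction reversed for called genes, in ato for CG32000 (-0.10), CG33978 (-0.23), Rfabg (-0.29) and zfh2 (-0.0706) and in wild type for Rfabg (-0.23), plexB (-0.15) and zfh2 (-0.088). The length correction also gave 15 higher and 8 lower genes in ato IP over input, beside 8.90% and 17.6% of all tested genes. In ato IP over wild-type IP it gave 2 higher and 4 lower, beside 3.87% and 2.57%. Between the inputs it gave 3 higher and 1 lower in ato, beside 5.90% and 2.33%. With no low-count filter, ato IP over wild-type IP had 2 higher and 6 lower genes of 74, beside 3.37% and 2.65% of all genes, and the inputs 2 higher and 2 lower, beside 5.11% and 2.90%. DESeq2 size factors gave 1 lower gene in ato IP over wild-type IP, beside 1.46% of all tested genes. DESeq2's Wald test gave 2 higher and 3 lower in the inputs, beside 5.94% and 3.21%. With 1 run per library 0 were lower in the inputs, beside 1.84%. The cause of these changes was not tested. Leaving out each library in turn gave 16 to 30 higher and 1 to 7 lower genes in ato IP over input, 21 to 33 higher and 2 to 5 lower in wild-type IP over input, 1 higher and 0 to 4 lower in ato IP over wild-type IP, and 1 to 2 higher and 0 to 3 lower in the inputs. DESeq2 size factors moved the median log2 ratio of all genes in ato IP over input by 0.11, to 0.13, and that of the fourth-chromosome genes to 0.61. With them 14.3% of all genes were higher and 13.2% lower in that comparison. The replicate block gave 30 higher and 5 lower genes in ato IP over input, beside 12.8% and 18.1% of all genes. In wild-type IP over input it gave 34 higher and 5 lower, beside 18.1% and 20.4%. In ato IP over wild-type IP it gave 2 higher and 3 lower, beside 3.20% and 2.27%. Between the inputs it gave 2 higher and 1 lower, beside 5.08% and 2.64%. It called 0 in the interaction. The labels do not say whether libraries with the same number belong together. Deviations from the group means correlated at 0.165 for ato IP and input and 0.0963 for wild-type IP and input. They correlated at 0.0600 between the IPs and 0.0595 between the inputs, and these values do not settle the pairing. Of the genes not called, 19 of 41 in ato IP over input and 18 of 34 in wild-type IP over input changed sign in some alternative. Values under alternatives were tallied for called single genes and for the medians of the fourth-chromosome genes together. Of these, 1104 stayed the same, meaning direction and call for a gene, or a place within the replicate spread for a median. The tally also held a setting that reused the main fit and left out CG17471, the 1 gene with over 15% exon overlap. CG17471 was never called, so the called genes could not change in that setting. Single genes lost the call in 139 values and reversed direction in 7. The 14 values that moved by more than the replicate spread were medians. With 2 libraries per group, depth and replicate number limit calls for genes such as sphinx, CG32006 and CG41130, whose standard errors exceeded 1 on the log2 scale.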
